A study of Mus musculus with 2 samples.

Results

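Gamma-delta T cells of the adult mouse lung were described in 2 single-cell RNA libraries of resident immune cells. One library came from tamoxifen-injected Gli1creERT/Hhipflo/flox mice and the other from oil-injected mice of the same genotype, so both groups carry the Cre allele and the floxed Hhip allele. In these mice a tamoxifen-inducible Cre is driven by Gli1, a target gene of Hedgehog signalling, and Hhip encodes an inhibitor of that pathway, found at the cell surface. The sorted cells were live, carried CD45, and had not been reached by a CD45 antibody injected into the blood shortly before death. The number of mice behind each library, their age beyond adult and the time after injection are not given in the sources used here. There was 1 library per group, so no difference between the groups has a replicate check, and every interval below is a 95% interval of counting error alone.

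The cells were selected on measured values. A kept barcode, with at least 300 genes and under 10% mitochondrial counts, counted as a gamma-delta T cell if it held a UMI (1 counted RNA molecule) of Trdc, the delta chain constant region, and a UMI of Cd3d, Cd3e or Cd3g. It also needed a UMI of Tcrg-C1, Tcrg-C2, Tcrg-C4, Trdv4 or Cd163l1, none of Cd4, Cd8b1 or Cd79a, and no more than 1 UMI of the C1q genes. This gave 338 of 10138 kept barcodes after tamoxifen and 231 of 6794 after oil, 569 of 16932 in all. The members held a median of 8 UMIs of Trdc in each library. At the edge of the rule, 32 tamoxifen and 20 oil members had exactly 1 Trdc UMI, while 25 tamoxifen and 22 oil barcodes met every condition except the one on gamma chain, Trdv4 and Cd163l1. Hhip and Gli1 had no UMI in any gamma-delta T cell, which allows a share of cells with a UMI of up to 0.888% after tamoxifen and 1.30% after oil, so the deletion itself cannot be checked in these cells.

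Gamma-delta T cells carry a T cell receptor made of a gamma and a delta chain in place of alpha and beta chains. In mice they leave the thymus in waves, and each wave uses its own pair of variable segments. A wave of fetal origin that joins Tcrg-V6 with Trdv4 settles in lung, skin, uterus and other tissues, where it is known as a source of interleukin-17. Others use different segments, circulate more widely and make either interleukin-17 or interferon-gamma. Cd163l1 and 5830411N06Rik, also known as Scart1 and Scart2, encode scavenger receptor cysteine-rich proteins of the cell surface that mark interleukin-17-producing gamma-delta T cells in the mouse. They are neighbours on chromosome 7 of GRCm38, Cd163l1 at chr7:140218267-140231145 and 5830411N06Rik at chr7:140247284-140300736, both on the plus strand.

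The reference sequence of the 2 variable segments of the fetal receptor is shown because they separate the kinds of cell described next. The last 60 bases of each segment on its own strand are given, with capitals from the codon of the conserved cysteine to the segment's end, where it is joined to the next segment. Tcrg-V6 lies at chr13:19190356-19190929 and Trdv4 at chr14:54074905-54075515, both on the plus strand of GRCm38.
Tcrg-V6: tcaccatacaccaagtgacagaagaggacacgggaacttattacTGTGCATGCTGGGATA
Trdv4: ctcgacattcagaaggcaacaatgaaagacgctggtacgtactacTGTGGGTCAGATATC
Of the 3 gamma constant regions that the rule uses, Tcrg-C1 and Tcrg-C2 are close copies and Tcrg-C4 differs more. This bears on how well their counts can be told apart. The first 60 bases of each are given with capitals at the positions where the 3 differ. Tcrg-C1 lies at chr13:19214103-19217024 and Tcrg-C4 at chr13:19344558-19352756 on the plus strand, and Tcrg-C2 at chr13:19304649-19307551 on the minus strand.
Tcrg-C1: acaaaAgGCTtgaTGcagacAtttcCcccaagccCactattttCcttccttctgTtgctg
Tcrg-C2: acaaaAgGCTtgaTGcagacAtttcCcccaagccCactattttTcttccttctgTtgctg
Tcrg-C4: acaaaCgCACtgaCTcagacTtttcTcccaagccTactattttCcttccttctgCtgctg
Tcrg-C1 and Tcrg-C2 differ at 1 of these 60 bases, and Tcrg-C1 and Tcrg-C4 at 10. The longest run of bases shared by the Tcrg-C1 and Tcrg-C2 transcripts is 104 bases long, so the split of reads between Tcrg-C1 and Tcrg-C2 is uncertain. The longest run that Tcrg-C4 shares with either is 29 bases long.

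The markers of the label were present, of which Trdc, Tcrg-C1, Trdv4 and Cd163l1 also serve in the rule. Over the members, Trdc stood at 1795 CPM (the gene's UMIs over all UMIs of the summed cells, scaled to 1000000) after tamoxifen and 1640 CPM after oil, and Tcrg-C1 at 401 and 411 CPM. Trdv4 stood at 379 CPM after tamoxifen and 482 CPM after oil. Il17a, which encodes interleukin-17A, stood at 827 CPM after tamoxifen and 1033 CPM after oil, and Blk, a Src-family kinase of this lineage and of B cells, at 119 and 136 CPM. Trac, the alpha chain constant region, had a UMI in 25.2% of tamoxifen and 31.4% of oil cells positive for Cd163l1 or 5830411N06Rik and in 36.5% and 25.4% of the rest, against 63.3% of tamoxifen and 66.7% of oil T cells without Trdc. The beta chain constant genes, close copies whose split of reads is uncertain, went the other way. Trbc1 had a UMI in 61.2% of tamoxifen and 64.5% of oil members, against 30.8% and 42.2% of the T cells without Trdc, and Trbc2 in 84.3% and 82.3%, against 78.0% and 76.6%. Alpha chain RNA was thus less frequent in members than in the other T cells of each library, and beta chain constant RNA was not.

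Gamma-delta T cells made up a similar share of both libraries. They were 3.33% of kept barcodes after tamoxifen (exact interval 2.99 to 3.70%) and 3.40% after oil (2.98 to 3.86%), a log2 ratio of -0.03 (-0.27 to 0.21). Among barcodes with a Cd3 UMI and no Cd79a UMI they were 6.76% after tamoxifen and 7.83% after oil, a log2 ratio of -0.21 (-0.44 to 0.02). Their share of all barcodes depends on the other cells sorted. With the alveolar macrophages left out, which numbered 1928 after tamoxifen and 415 after oil, the share was 4.12% and 3.62%, a log2 ratio of 0.19 (-0.05 to 0.42). No ratio of these 3 excludes an equal share on counting error.

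Most of the selected gamma-delta T cells carried a scavenger receptor gene, of which Cd163l1 can itself admit a cell under the rule. How many members entered on Cd163l1 alone was not counted. A UMI of Cd163l1 or 5830411N06Rik was found in 234 of 338 members after tamoxifen (69.2%, 64.0 to 74.1%) and in 172 of 231 after oil (74.5%, 68.3 to 80.0%), a log2 ratio of -0.11 (-0.25 to 0.04). The 2 genes seldom shared a cell. Cd163l1 alone was found in 196 tamoxifen and 144 oil cells, 5830411N06Rik alone in 30 and 21, both in 8 and 7, and neither in 104 and 59. As a share of barcodes with a Cd3 UMI and no Cd79a UMI, positive cells were 4.68% after tamoxifen and 5.83% after oil. Their log2 ratio of -0.32 (-0.59 to -0.04) leaves out 0 on counting error alone, and the rest had a log2 ratio of 0.06. After each cell was thinned to 1500 UMIs, which takes depth out of the share, 46.2% of tamoxifen and 51.1% of oil members were positive.

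The 2 genes differ in how they mark the lineage. Cd163l1 had a UMI in 0.906% of tamoxifen and 0.644% of oil T cells without Trdc, and the rule admits a cell on Cd163l1 itself. 5830411N06Rik, which the rule does not use, had a UMI in 11.2% of tamoxifen and 12.1% of oil gamma-delta T cells, and in 9.06% and 6.57% of the other T cells. The median depths were 5016 UMIs after tamoxifen and 5804 after oil for the members, and 5516 and 5784 for the other T cells. The intervals of the 2 cell sets overlapped after tamoxifen (8.08 to 15.1% and 8.21 to 9.97%) and did not after oil (8.21 to 17.04% and 5.60 to 7.66%).

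Cells with Cd163l1 alone and cells with 5830411N06Rik alone differed in their receptor segments. Tcrg-V6, which the rule does not use, had a UMI in 95 of 196 Cd163l1-only cells after tamoxifen (48.5%, 41.3 to 55.7%) and 70 of 144 after oil (48.6%, 40.2 to 57.1%). It had none in the 30 tamoxifen and 21 oil cells with 5830411N06Rik alone, which allows shares of up to 10.0% and 14.3% at 3 counts (upper ends of the exact intervals 11.6% and 16.1%), and was found in 2.88% and 3.39% of cells with neither gene. It was also absent from the counts of the 8 tamoxifen and 7 oil cells with both genes. T cells without Trdc gave the background, with Tcrg-V6 in 0.286% after tamoxifen and 0.558% after oil. Both libraries gave the same order, with about equal shares in each kind of cell.

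Trdv4 followed the same pattern, although a Trdv4 UMI can itself admit a cell. It was found in 86.7% of tamoxifen and 89.6% of oil cells with Cd163l1 alone, in 6.67% and 9.52% of cells with 5830411N06Rik alone, and in 10.6% and 15.3% of cells with neither. Among members with a Tcrg-V6 UMI, 89 of 98 tamoxifen cells (90.8%) and 67 of 72 oil cells (93.1%) also held Trdv4. The 2 genes were thus counted together in most cells that held Tcrg-V6. The counts are per gene and do not show which bases of a segment were read. The wider share of Trdv4 than of Tcrg-V6 was seen at few UMIs of Tcrg-V6, 163 in all after tamoxifen and 105 after oil.

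Most of the remaining gamma-delta T cells held other gamma variable segments. Under the rule, cells without Cd163l1 could enter only on a UMI of a gamma constant region or Trdv4. Cells with Cd163l1 could enter without one. The shares below thus come from sets selected differently on gamma chain RNA. For the pooled segments no background in T cells without Trdc was counted. A UMI of Tcrg-V1, Trgv2, Tcrg-V4, Tcrg-V5 or Tcrg-V7 was found in 18 of 30 tamoxifen and 15 of 21 oil cells with 5830411N06Rik alone, in 67.3% and 66.1% of cells with neither gene, and in 24.0% and 36.8% of cells with Cd163l1 alone. Tcrg-V4, the segment of a second interleukin-17-producing population in mice, was found in 6 of 30 tamoxifen and 4 of 21 oil cells with 5830411N06Rik alone, in 8.65% and 11.9% of cells with neither, and in 1.53% and 2.78% of cells with Cd163l1 alone. Tcrg-V1 was most frequent in cells with neither gene, at 40.4% after tamoxifen and 30.5% after oil. T cells without Trdc also held some of these segments. Trgv2 was found in 41.0% of them after tamoxifen and 32.7% after oil, and Tcrg-V4 in 6.68% and 6.79%. A gamma segment alone thus does not set gamma-delta T cells apart. For Tcrg-V4 the intervals in cells with neither gene, 4.03 to 15.8% and 4.91 to 22.9%, took in these background values. Those in cells with 5830411N06Rik alone were wide, 7.71 to 38.6% after tamoxifen and 5.45 to 41.9% after oil.

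**Figure D1:**
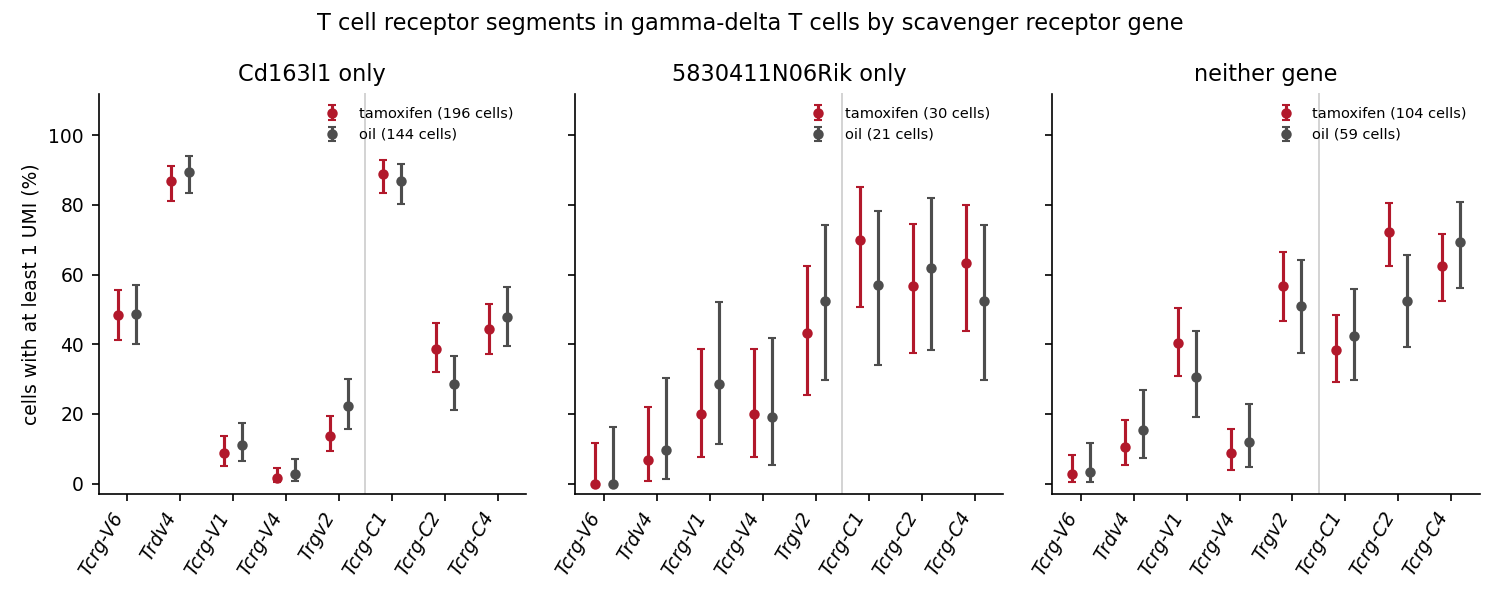
Share of cells with at least 1 UMI of each receptor segment, in percent, for gamma-delta T cells with Cd163l1 alone (left), with 5830411N06Rik alone (middle) and with neither gene (right). Points are the tamoxifen (red) and oil (grey) libraries and bars are exact 95% binomial intervals. Tcrg-V6 stands at 48.5% and 48.6% in the left panel and at 0 in the middle one.

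Positive cells and the rest differed in the same way in both libraries. Positive cells held the interleukin-17 genes and the rest held genes of interferon-gamma-producing and cytotoxic cells. Levels were summed over the cells of each set within a library, and a gene counted as different where its CPM differed 1.5-fold or more the same way in both libraries with at least 20 UMIs over both sums. By this rule 5.68% of the 5761 genes measured were higher and 3.61% were lower in positive cells than in the rest. At any fold, 1857 of the 5761 genes (32.2%) were higher in both libraries and 1549 were lower in both. Of 26 listed type 17 genes, 24 were measured, 22 were higher in both libraries, 19 of them by 1.5-fold or more, and Ahr alone was lower in both. The median log2 ratio of the list was 1.19 in the tamoxifen library and 1.38 in the oil library, beside 0.03 and 0.02 over all genes. Of 19 listed type 1 and cytotoxic genes, 16 were measured, all were lower in positive cells in both libraries, and 15 by 1.5-fold or more, with medians of -2.34 and -2.75. The exception to the fold was Il2rb, a receptor chain for interleukin-2 and interleukin-15, at -0.04 and -0.08.

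Il17a had 1156 CPM after tamoxifen and 1325 CPM after oil in positive cells, against 103 and 120 CPM in the rest, log2 ratios of 3.48 and 3.46. It had a UMI in 48.3% of tamoxifen and 51.7% of oil positive cells and in 14.4% and 11.9% of the rest. After thinning to 1500 UMIs the shares were 34.6% and 38.0% of positive cells, 13.4% and 7.27% of the rest, and 0.311% and 0 of B cells, which should lack the gene. Positive cells were the higher set in each library, at both depths. Blk stood at 167 and 172 CPM in positive cells and 11.5 and 24.0 CPM in the rest. Sox13, a transcription factor that programs interleukin-17-producing gamma-delta T cells, had log2 ratios of 3.64 and 2.11.

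Receptors through which these cells are stimulated were also higher in positive cells. Il1r1, the interleukin-1 receptor, stood at 123 CPM after tamoxifen and 159 CPM after oil in positive cells, against 37.8 and 48.0 CPM in the rest. Il23r, the interleukin-23 receptor, had log2 ratios of 1.16 and 1.02, and Il7r, the interleukin-7 receptor, 0.72 and 0.66. Pdcd1, which encodes the inhibitory receptor PD-1, was higher at 1.37 and 1.29. Of 20 measured cytokine receptors 11 were higher in both libraries and 4 lower, 7 of the 11 by 1.5-fold or more. Over all genes 32.2% were higher in both libraries.

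Single genes that set the positive cells apart lay inside and outside the list counted above as mostly higher in these cells. Kcnk1, Actn2, Serpinb1a and Tmem176a are on that list, so they add nothing to its count. Auts2 had 87.5 CPM after tamoxifen and 90.1 CPM after oil in positive cells, against 1.64 and 12.01 CPM in the rest. Abi3bp, which encodes a matrix protein, had 142 and 161 CPM in positive cells against 24.6 and 33.0 CPM. Kcnk1, a potassium channel, had 152 and 215 CPM in positive cells against 31.2 and 51.0 CPM. Each was higher in positive cells in both libraries. Actn2, an actin cross-linker of muscle, and Serpinb1a, a protease inhibitor, had log2 ratios of 2.06 and 1.67, and of 1.44 and 1.87. Cd247, the zeta chain of the receptor complex, had 1.63 and 1.82, Tmem176a 1.20 and 1.46, Avpi1 1.54 and 2.32, and the monocarboxylate transporter gene Slc16a6 1.44 and 2.80. In all 123 genes met the stricter rule for naming on this side and 91 on the other.

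Genes of the type 1 and cytotoxic list were prominent among those lower in positive cells, beside single genes of other functions. The 8 measured inhibitory and costimulatory receptors had no common direction, with 3 higher and 2 lower in both libraries. Nkg7, a protein of cytotoxic granules, had 31.4 CPM after tamoxifen and 11.5 CPM after oil in positive cells, against 953 and 639 CPM in the rest, log2 ratios of -4.92 and -5.80. After thinning it was found in 1.75% of tamoxifen and 1.20% of oil positive cells and in 47.4% and 49.1% of the rest. Ccl5, a chemokine of cytotoxic cells, had 358 and 468 CPM in positive cells and 3587 and 2903 CPM in the rest. Both genes were lower in positive cells in each library. The kinase gene Lck had 8.22 and 4.79 CPM in positive cells against 179 and 201 CPM in the rest, and the costimulatory receptor gene Cd28 11.2 and 12.5 CPM against 179 and 186 CPM. Cd27, a marker of interferon-gamma-producing gamma-delta T cells in the mouse, had log2 ratios of -3.34 and -2.87. Others of this side were Themis (-5.89 and -5.82), Trat1 (-5.22 and -5.06), the chemokine gene Xcl1 (-4.63 and -4.13), Ms4a4b (-3.84 and -4.12), the lectin receptor genes Klrc1 (-3.74 and -3.53) and Klrc2 (-3.60 and -4.23), the collagen-binding integrin gene Itga1 (-3.98 and -3.72), Fasl (-3.55 and -3.53) and Ctla2a (-2.93 and -3.23). NK and ILC1 markers also moved with this side, at 12.7 CPM after tamoxifen and 33.5 CPM after oil summed over the 7 genes in positive cells, and 96.9 and 177 CPM in the rest. Of these 7 genes, Eomes, Gzma and Prf1 are also on the type 1 list. With cells holding Ncr1, Klrb1c or Il1rl1 UMIs left out, 194 genes in place of 208 were lower, 144 of them shared. The part of such cells in the result was not tested further.

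**Figure D2:**
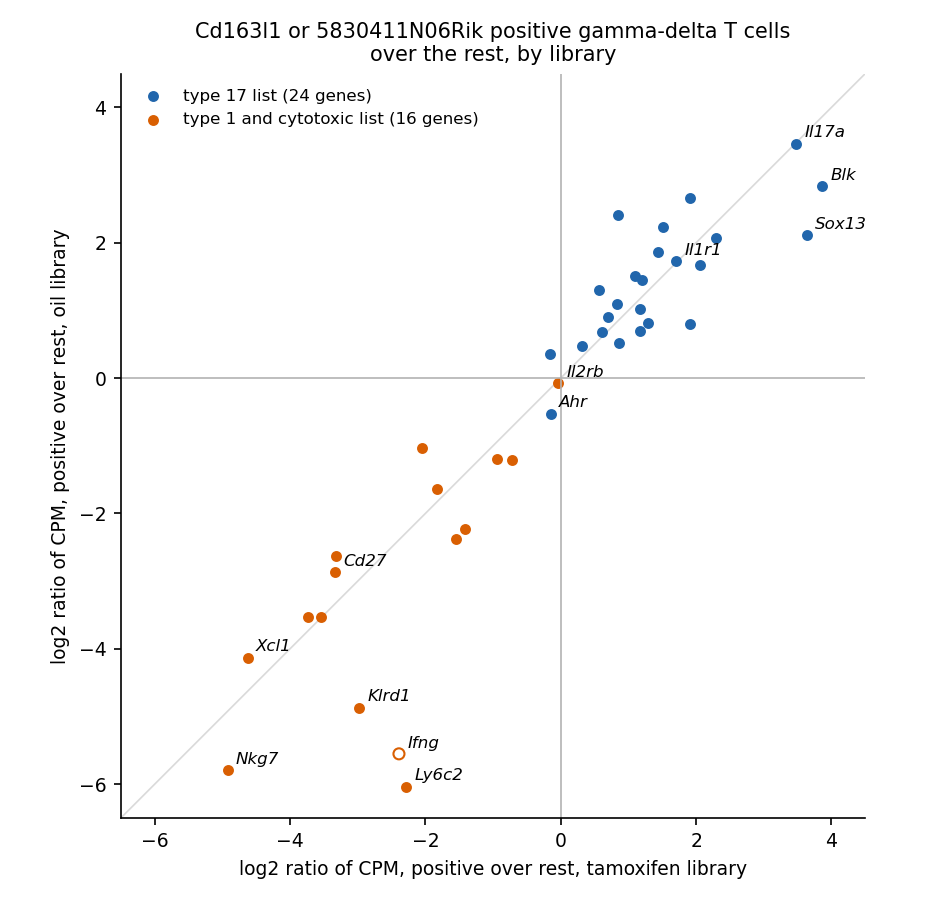
Log2 ratio of CPM in positive cells over the rest, for the tamoxifen library (x axis) and the oil library (y axis). Each point is a gene of the type 17 list (blue, 24 genes) or of the type 1 and cytotoxic list (orange, 16 genes), and the open point is a bound against 3 counts because Ifng had no UMI in oil positive cells. The lists lie on opposite sides of 0 in both libraries, except for Ahr and for a type 17 gene just below 0 on the x axis.

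Cells with 5830411N06Rik alone held more type 17 RNA than cells with neither gene, but after tamoxifen less than those with Cd163l1 alone. The 26 type 17 genes summed to 7957 CPM after tamoxifen and 8579 CPM after oil in cells with Cd163l1 alone, 4538 and 7914 CPM in those with 5830411N06Rik alone, and 3104 and 3378 CPM in those with neither. The 19 type 1 genes summed to 1169 and 1222 CPM, 1027 and 1413 CPM, and 6530.4 and 5894 CPM in the same order. Per cell the median was 40 and 44.5 type 17 UMIs with Cd163l1 alone, 21.5 and 42 with 5830411N06Rik alone, and 8.5 and 12 with neither. Both kinds of positive cell were thus low in type 1 genes. Of the 1193 type 17 UMIs in oil cells with 5830411N06Rik alone, 1 cell held 187 of Il17a and 41 of Il17f. Sox13 was alike in both kinds, at 62.7 CPM after tamoxifen and 49.3 CPM after oil with Cd163l1 alone and 62.1 and 59.7 CPM with 5830411N06Rik alone.

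Several genes differed between the kinds. Auts2 had no UMI in the 30 tamoxifen and 21 oil cells with 5830411N06Rik alone, against 104 and 108 CPM with Cd163l1 alone. Pdcd1 had a UMI in 26.7% of tamoxifen and 23.8% of oil cells with 5830411N06Rik alone, against 77.6% and 77.8% with Cd163l1 alone. Thy1, a surface glycoprotein of T cells, had 198 and 232 CPM with 5830411N06Rik alone and 61.8 and 86.8 CPM with Cd163l1 alone. Pdcd1 and Auts2 were thus lower and Thy1 higher in cells with 5830411N06Rik alone, in both libraries. Ccr6, the receptor for the chemokine CCL20, had a UMI in 40.0% and 33.3% of cells with 5830411N06Rik alone and in 17.3% and 19.4% of those with Cd163l1 alone. Median depths were 5044 UMIs after tamoxifen and 6581 after oil with 5830411N06Rik alone, and 5052 and 5848 with Cd163l1 alone.

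**Figure D3:**
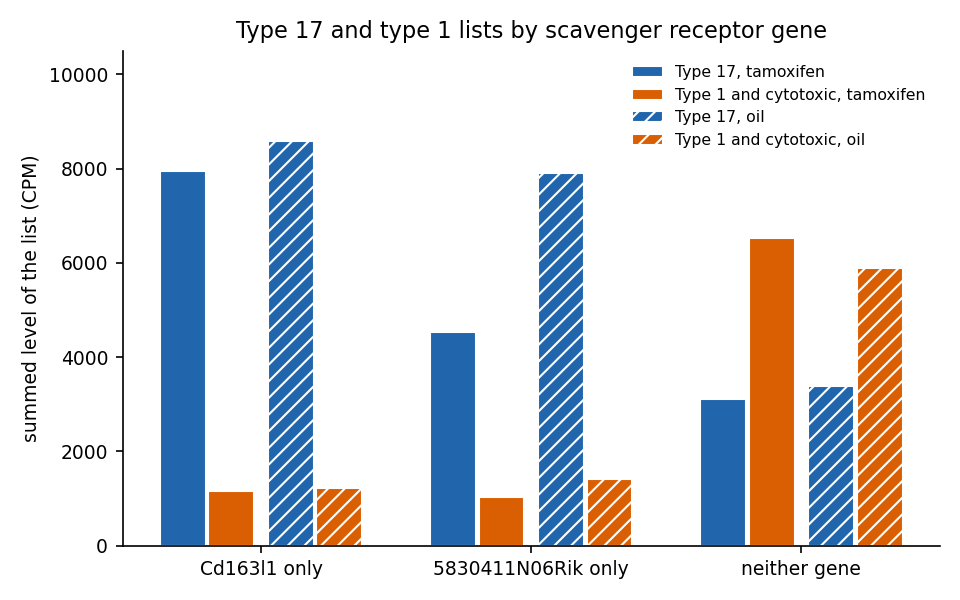
Summed CPM of the 26 type 17 genes (blue) and the 19 type 1 and cytotoxic genes (orange) in gamma-delta T cells with Cd163l1 alone, with 5830411N06Rik alone and with neither gene, for the tamoxifen (plain) and oil (hatched) libraries. Type 1 genes reach 6530.4 and 5894 CPM in cells with neither gene and at most 1413 CPM in the others.

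Between tamoxifen and oil, gene levels were summed over all members of each library, and a gene counted as different at a 2-fold difference with at least 20 UMIs over both sums. By this rule 6.55% of 8443 genes were higher and 1.85% lower after tamoxifen, and 58.9% of genes were higher at all. The 553 genes past the fold on the higher side were 287 once called doublets were left out, and 215 in cells thinned to 1500 UMIs, of which 55 were shared. Markers of other cells moved with this comparison. The 7 alveolar macrophage genes summed to 642 CPM in positive cells and 723 CPM in the rest after tamoxifen, and to 31.6 and 54.0 CPM after oil, where Marco was at 0. Neutrophil genes summed to 200 and 41.1 CPM after tamoxifen and 4.79 and 6.005 CPM after oil, with Cxcr2 at 0 in the members. Other T cells held more of both, 2383 CPM of the alveolar macrophage genes after tamoxifen and 668 CPM after oil. The part of such RNA in the counts was not tested. Genes are named below only where a library's non-T cells held less than 5 times the level in gamma-delta T cells.

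Areg, which encodes amphiregulin, a factor of the epidermal growth factor family, ranked first by its interval among the genes named on the higher side. The naming leaves out genes abundant in the non-T cells checked, such as those of alveolar macrophages. Areg had 663 CPM after tamoxifen and 185 CPM after oil, a log2 ratio of 1.84 (1.64 to 2.04), from 1290 and 255 UMIs. The difference lay in the positive cells, at 907 CPM after tamoxifen and 152 CPM after oil (log2 ratio 2.57), while the rest had 125 and 288 CPM (-1.21) and the other T cells 188 and 206 CPM (-0.13). Within the positive cells it lay in those with Cd163l1 alone, at 1077 and 159 CPM (2.76, 2.50 to 3.02). Cells with 5830411N06Rik alone went the other way, with 1 UMI after tamoxifen and 18 after oil (-4.40, -9.78 to -1.74). The UMIs were unevenly spread. In the rest, 1 oil cell held 52 of the 96 oil UMIs (54.2%), so the value of -1.21 rests largely on that cell. An Areg UMI was found in 23.1% of tamoxifen and 16.9% of oil members, with up to 193 UMIs in a tamoxifen cell and 52 in an oil cell, and the 5 highest cells held 38.3% and 44.7% of all. After thinning, 19.7% of tamoxifen and 11.4% of oil positive cells held a UMI, against 1.24% and 2.72% of B cells. In female cells the log2 ratio was 2.02 and in male cells 1.90. Group 2 innate lymphoid cells (ILC2) also make Areg and were not among the non-T cells checked for naming. The 7 other ILC2 markers summed to 267 CPM in positive cells after tamoxifen and 238 CPM after oil, with Il5 at 0 in both.

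Itgae, the CD103 integrin chain that binds E-cadherin on epithelium, was higher after tamoxifen in each kind of cell. It had 123 CPM after tamoxifen and 51.6 CPM after oil (log2 ratio 1.25, 0.86 to 1.65), with a UMI in 28.1% and 15.2% of members. The ratio was 1.59 in cells with Cd163l1 alone, 2.01 with 5830411N06Rik alone and 0.53 with neither, where its interval of -0.00 to 1.08 reached 0. In other T cells it was -0.10. Itgae was the single gene past 2-fold of 16 measured residency genes, whose median was 0.12 beside 0.08 over all genes. The activation and residency gene Cd69 had 408 CPM after tamoxifen and 681 CPM after oil, a log2 ratio of -0.74, and was also lower in other T cells (-0.55).

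Il17a did not follow one direction over the kinds of gamma-delta T cell. Over all members its log2 ratio was -0.32 (-0.42 to -0.22), at 827 CPM after tamoxifen and 1033 CPM after oil. In cells with Cd163l1 alone it had 1324 CPM after tamoxifen and 1019 CPM after oil, a log2 ratio of 0.38 (0.26 to 0.50), with a UMI in 52.0% and 50.7% of cells. In cells with 5830411N06Rik alone it had 260 and 2262 CPM, from 46 and 341 UMIs, and 1 oil cell held 187 of the 341. The overall value thus rested on few cells, and the share of members with a UMI was 37.9% after tamoxifen and 41.6% after oil. T cells without Trdc had 793 CPM after tamoxifen and 310 CPM after oil, a log2 ratio of 1.36 (1.31 to 1.40).

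Il17f, the paralog of Il17a, was past 2-fold lower. It had 33.4 CPM after tamoxifen and 106 CPM after oil, a log2 ratio of -1.67 (-2.11 to -1.24), from 65 and 146 UMIs, with a UMI in 5.33% and 9.52% of members. Of the 146 oil UMIs, 80 lay in 4 cells with 5830411N06Rik alone, and the ratio in cells with Cd163l1 alone was -0.76. T cells without Trdc went the other way, at 108 CPM after tamoxifen and 35.1 CPM after oil (1.62). Of 25 measured type 17 genes, 6 were higher and 19 lower after tamoxifen, with a median of -0.20 beside 0.08 over all genes, and 1 was past 2-fold on each side. Ramp1, a receptor subunit for the neuropeptide CGRP, had 526 CPM after tamoxifen and 794 CPM after oil (-0.59), Kcnk1 115 and 175 CPM (-0.61) and Il1r1 96.1 and 132 CPM (-0.46). Blk was at -0.20 (-0.48 to 0.09).

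**Figure D4:**
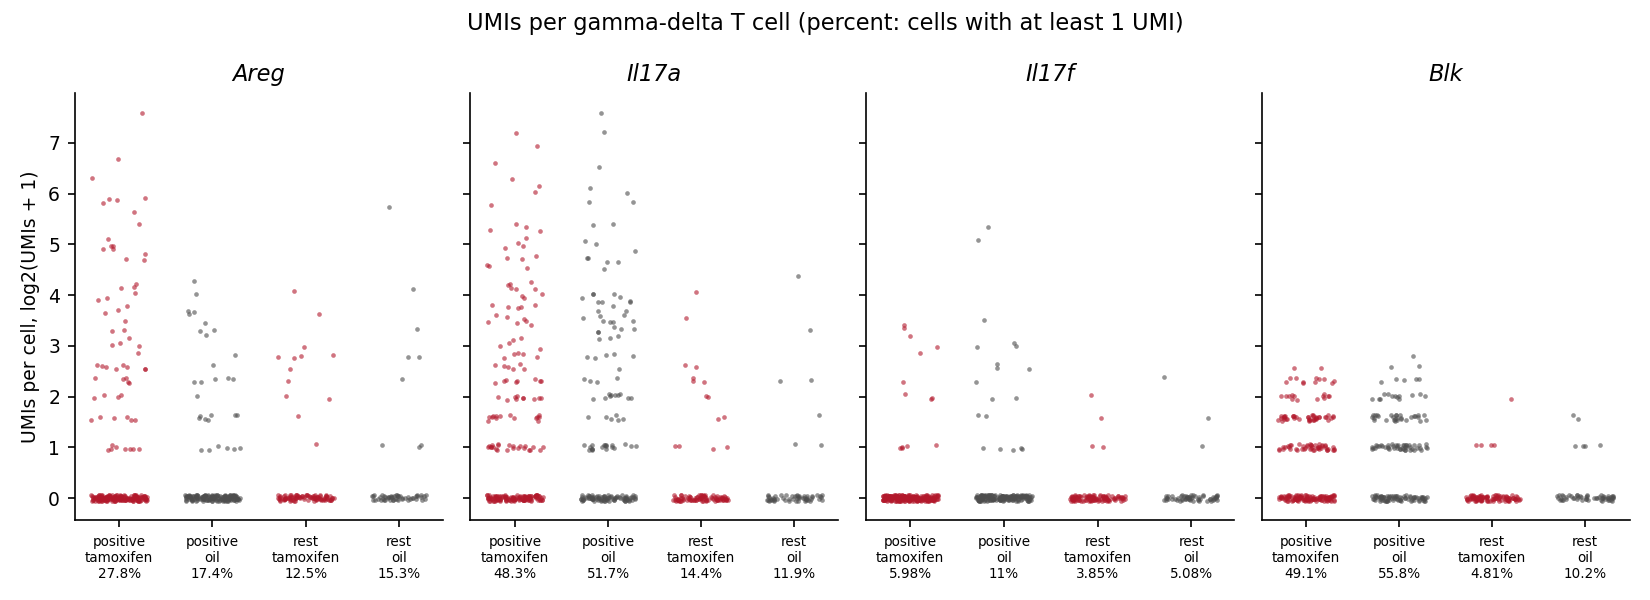
UMIs per gamma-delta T cell, as log2(UMIs + 1), for Areg, Il17a, Il17f and Blk, in positive cells and in the rest, each for the tamoxifen (red) and oil (grey) libraries. Each point is a cell, and the percentages are cells with at least 1 UMI. The tall tails of Areg after tamoxifen, up to 193 UMIs, and of Il17a after oil, up to 187 UMIs, show how few cells carry the sums.

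The other genes named on the higher side were mostly of low level. Ccdc88a, which encodes the actin-binding protein girdin, had 56.5 CPM after tamoxifen and 14.5 CPM after oil. Itga4, the integrin alpha-4 chain, had 89.4 and 40.0 CPM (1.16), and Tbc1d4, a regulator of glucose transporter traffic, 126 and 57.4 CPM (1.14), with 60.2% and 79.7% of its UMIs in 5 cells. Smc2 (68.3 and 29.8 CPM), a condensin subunit, Csnk2a1 (62.2 and 25.4 CPM), a kinase subunit, Diaph2 (64.2 and 30.5 CPM), a formin, and Sdc1 (53.4 and 26.2 CPM), a cell surface proteoglycan, were also higher. So were Krcc1 (77.1 and 36.3 CPM), Rassf3 (59.6 and 25.4 CPM) and Rnaset2b (73.5 and 36.3 CPM). The last 2 were higher in T cells without Trdc too, at 0.96 and 1.40.

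On the lower side, Samd11 had 44.7 CPM after tamoxifen and 150 CPM after oil (log2 ratio -1.74, -2.12 to -1.38), with a UMI in 18.6% and 42.9% of members. Setd5, which encodes a SET domain protein, had 55.5 and 140 CPM (-1.34), and Gt(ROSA)26Sor, a non-coding gene, 37.0 and 83.6 CPM (-1.18). These 3 were lower in T cells without Trdc as well, at -1.25, -1.37 and -1.14. Setd5 at chr6:113077365-113153435 and Gt(ROSA)26Sor at chr6:113067428-113077333 start 31 bases apart on opposite strands. Dkk3 (29.3 and 69.0 CPM), a secreted protein of the Dickkopf family, Rbpms2 (36.0 and 74.1 CPM), Tmem156 (23.1 and 50.1 CPM) and Mbd1 (25.2 and 53.0 CPM) were lower by 1.24, 1.04, 1.12 and 1.08.

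**Figure D5:**
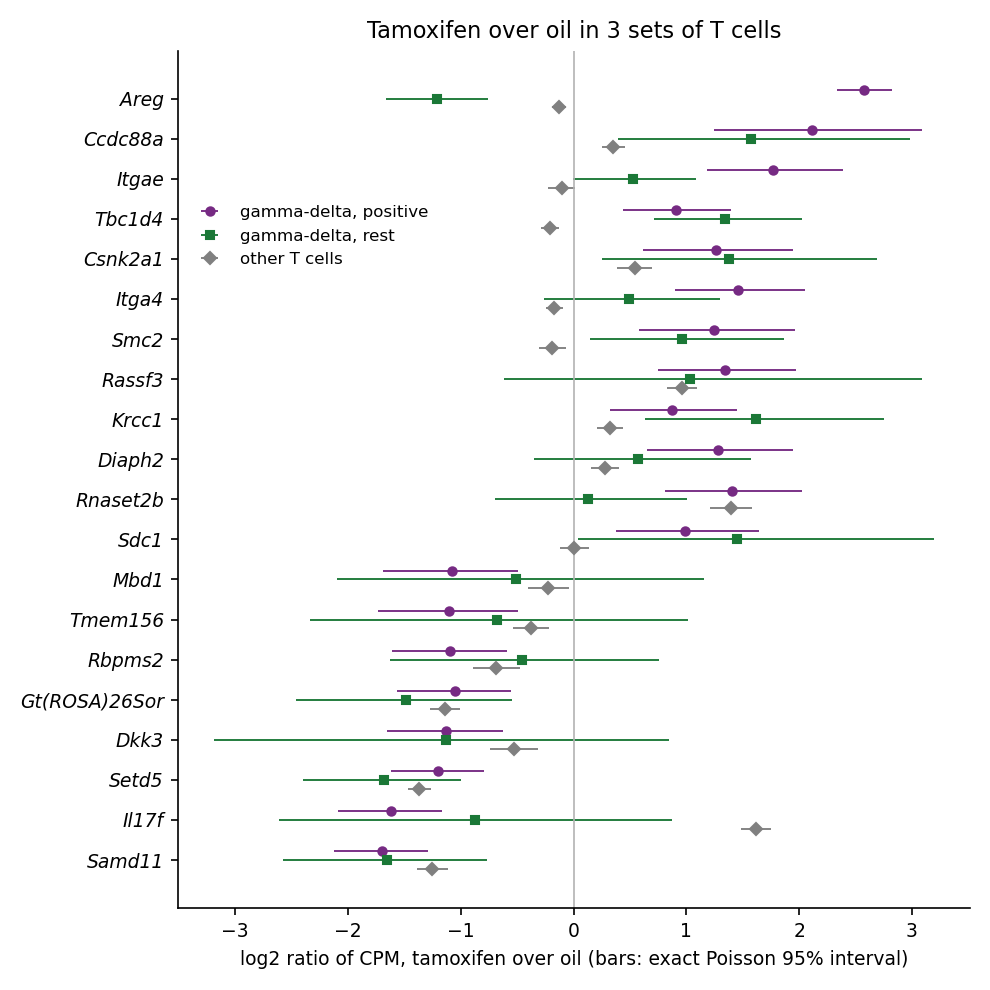
Log2 ratio of CPM, tamoxifen over oil, for the 20 named genes in positive gamma-delta T cells (purple), in the rest (green) and in T cells without Trdc (grey). Bars are exact 95% Poisson intervals of counting error. Areg lies at 2.57 in positive cells and -1.21 in the rest, where 1 oil cell held 54.2% of the oil UMIs. Il17f lies below 0 in positive gamma-delta T cells and at 1.62 in the other T cells. In the rest it lies at -0.87, with an interval of -2.61 to 0.87 that takes in 0.

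The lists gave few further differences between the groups. Type 1 and cytotoxic genes were 9 higher and 9 lower of 18, none past 2-fold, with a median of 0.02, and 21 transcription factors had none past 2-fold. Interferon response genes were 9 higher and 5 lower of 14, none past 2-fold (median 0.43), while in the rest 6 of 10 measured were past 2-fold higher (median 1.24), beside 7.9% of all 5015 genes measured there (median 0.06). Immediate early genes were 5 higher and 12 lower in positive cells and 13 higher and 4 lower in the rest, where 58.5% and 55.7% of all genes were higher. All 6 measured cycling genes were past 2-fold higher, in few cells, with 66.7% to 100% of their UMIs in 5 cells. Csf2, a growth factor for myeloid cells, had 13 UMIs after tamoxifen and 46 after oil, and Il22 had 46 and 4, of which 97.8% and 100% lay in 5 cells.

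Against T cells without Trdc, gamma-delta T cells differed 2-fold or more the same way in both libraries for 1.09% of 11806 genes higher and 5.13% lower. All genes had a median log2 ratio of -0.07 in the tamoxifen library and -0.11 in the oil library. Several named genes higher in gamma-delta T cells were also named in positive cells. Auts2 had 60.6 CPM after tamoxifen and 71.2 CPM after oil in gamma-delta T cells, against 4.06 and 6.54 CPM in the other T cells. Blk had log2 ratios of 2.88 and 2.68, Abi3bp 1.81 and 1.89, Kcnk1 1.73 and 1.94, and Cd247 1.36 and 1.62. Pdcd1 had 391 and 379 CPM in gamma-delta T cells against 134 and 88.4 CPM, and Gzmb, the granule protease granzyme B, 90.9 and 83.6 CPM against 20.3 and 30.7 CPM. Cd7 (1.47 and 1.79), Hilpda, a lipid droplet protein (1.21 and 1.67), and Gem, a small GTPase (1.60 and 1.34), completed the named genes.

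The genes lower in gamma-delta T cells included receptors and ligands of activated alpha-beta T cells. The rule removes cells with Cd4 or Cd8b1 from the gamma-delta set and not from the other T cells. Tnfrsf4, the costimulatory receptor OX40, had 5.14 CPM after tamoxifen and no UMI after oil in gamma-delta T cells, against 84.9 and 85.0 CPM in the other T cells. Ctla4 had 73.5 and 91.5 CPM against 248 and 260 CPM. Cd40lg (-1.34 and -1.75), Tnfsf8 (-2.39 and -3.06), Cd28 (-1.35 and -2.10) and Lck (-1.22 and -1.55) were lower in both libraries, as were Ifi27l2a, Ptms and Fam46a. Of 16 inhibitory and costimulatory receptors, 13 were lower in both libraries, 6 of them by 2-fold or more, and 3 were higher. Type 17 genes were 19 higher and 3 lower of 26, with medians of 0.53 and 0.55. Type 1 and cytotoxic genes were 11 higher and 6 lower of 19, with medians of 0.68 after tamoxifen and 0.34 after oil. NK and ILC1 genes were 4 higher and 1 lower of 6 measured, with medians of 0.55 and 0.52. A higher level was thus not particular to the type 17 list. Over all 11806 genes measured, 2895 (24.5%) were higher and 4838 lower in both libraries. Il17a was level with the other T cells after tamoxifen, at a log2 ratio of 0.06, and higher after oil, at 1.74.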

How the data were processed

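Barcode matrices of 2 libraries were used, made with 10x 3' v3 chemistry per the labels' protocols and Cell Ranger 5.0.1 on GRCm38 (mm10) per the submitters' processing notes. The deposited values are whole-number UMI counts per gene and barcode, as the authors' files hold them, for 31053 genes. The tamoxifen library held 12980 barcodes and 83730550 UMIs and the oil library 10342 barcodes and 57704412 UMIs. Of these, 10138 and 6794 were kept, with medians of 6431 and 6360 UMIs. Barcodes with 10% or more mitochondrial counts were 20.7% and 31.9%. No annotation of cells was used. The libraries shared 41 barcodes, 18 of them kept in both and 0 a member in both.

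UMIs were summed per library and cell set, and ratios of CPM were given with exact conditional Poisson intervals and shares with Clopper-Pearson intervals. A ratio of 2 shares has a normal-approximation interval from both binomials. These cover counting error only. Where cells carry many UMIs of a gene they are too narrow. With 1 library per group, and cells that are no replicates, no test was run. A 0 was set against 3 counts. The members and the gene lists were chosen with earlier results of these data known. Genes were named where the higher sum had at least 50 CPM and 30 UMIs (tamoxifen over oil) or 15 UMIs in each library (within libraries), ranked by the end of the interval closest to 0 on the log2 scale, up to 12 or 10 each way. Genes of the rule, segments, ribosomal, mitochondrial and sex-linked genes were left out. So were genes that the non-T cells checked in the library held at over 5 times the level. Innate lymphoid and NK cells were not among these. Genes of the lists are named as well. Doublets were left in, and their removal was an alternative. Scrublet (scanpy 1.11.5) called 4.10% of tamoxifen barcodes and 0.0589% of oil barcodes. The oil call had not worked, so the 5.43% with the highest scores were taken there. Segment sequences came from GENCODE transcripts of GRCm38. The scripts were tested on simulated counts.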

Additional observations from a re-analysis of the deposited data

Results flagged for a closer look

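Some genes moved in opposite directions, tamoxifen over oil, in positive gamma-delta T cells and in the rest, with both counting intervals clear of 0. The difference between the sets was not tested, since there was 1 library per group. Log2 ratios in positive cells and then in the rest were 2.57 and -1.21 for Areg, 2.81 and -0.94 for Ly6c2, 2.26 and -0.59 for Fcer1g, and 0.46 and -1.76 for Apoe. They were -0.82 and 0.95 for Fos, -1.12 and 1.05 for Jun, -0.59 and 1.12 for Ly6a, -0.45 and 0.44 for Thy1, and -0.39 and 0.31 for Ccl5. For Areg, 1 oil cell held 54.2% of the oil UMIs in the rest. Apoe and Fcer1g are abundant in macrophages and myeloid cells, whose markers were at other levels in the 2 libraries, and the part of such RNA was not tested. Some values rest on few UMIs. Apoe had 7 UMIs after tamoxifen and 13 after oil in the rest, and Ly6c2 had 18 and 2 in positive cells.

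Other genes moved in opposite directions in female and male cells, told apart by Xist and Y-linked UMIs, which was likewise not tested. Log2 ratios in female and then in male cells were -1.07 and 2.60 for Ccl4, -0.35 and 1.32 for Ctla2a, -1.60 and 0.78 for Cxcr3, 1.35 and -1.94 for Fcer1g, -0.77 and 0.64 for Hk2, 0.90 and -2.60 for Ier3, -0.95 and 1.90 for Ly6a, 0.68 and -0.97 for Zbtb16, and -0.48 and 0.82 for Zfp36. Some of these also rest on few UMIs, such as Ier3 with 6 after tamoxifen and 35 after oil in male cells.

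Among barcodes outside the filters on genes and mitochondrial counts, 28 of 2842 after tamoxifen and 39 of 3548 after oil also met the conditions for a gamma-delta T cell. These barcodes were not analysed further.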

How the results depend on the processing

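No paired analysis was possible because each group had 1 library and the labels carry no replicate numbers. Of the comparisons under 23 settings, 86 values stayed the same by the rule used and 14 moved. Without called doublets, 287 genes in place of 553 were higher after tamoxifen, 240 of them shared. With no UMI minimum, 1348 and 770 genes were higher and lower after tamoxifen, 588 and 2150 in positive cells, and 3219 higher in gamma-delta than in other T cells, since genes under 20 UMIs then enter. In cells thinned to 1500 UMIs these counts were 215 and 90, 154 and 86, and 61 and 296, from fewer UMIs, of which 55 and 10, 87 and 44, and 43 and 134 were shared. In male cells the log2 ratio of the positive share was 0.052, and 186 genes were higher after tamoxifen, 48 of them shared. In female cells more of the higher genes were shared than in male cells, though not most of the 553. Few of the genes lower after tamoxifen were shared in these sets, 20 in male cells, 21 in female cells and 7 in the rest. The named genes' ratios stayed the same in 252, 272 and 179 instances and moved without turning in 40, 16 and 30 (tamoxifen over oil, positive over rest, gamma-delta over other T cells). Among the first, Mbd1 turned to 0.12 in thinned, 0.38 in female and 0.58 in male cells, Tbc1d4 to -0.10 in female cells, Itga4 to -0.21, Rnaset2b to -0.16 and Il17f to 0.21 in male cells, and Areg to -1.21 in the rest. The cause was not tested. Leaving out cells with Ncr1, Klrb1c or Il1rl1, taking Cd163l1 alone as positive, or leaving out the 5 deepest members, all chosen after seeing the data, moved no count by over 1.5 times. Depth limits Tcrg-V6, Il22 and Csf2, which rest on few UMIs.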
